A study of Homo sapiens with 12 samples.

Results

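Cysteine is encoded by 2 codons, UGC and UGU, and these were the 2 of 61 sense codons examined across 12 libraries of ribosome footprints. They were picked on their lower occupancy in knockout monosomes and the lack of it in disomes, so the difference between genotypes is described for them without a test. The libraries came from human embryonic kidney cells, named HEK293 in the sample labels and HEK-293T in the study's methods, which were wild type (WT) or carried a CRISPR-Cas9 deletion of THUMPD1 (KO). THUMPD1 is the adapter through which the acetyltransferase NAT10 modifies the tRNAs for Leu and Ser. Both genotypes were untreated and were lysed in cycloheximide. The KO cells went through single-cell sorting, and the number of clones behind the libraries is not given in the sources used here. Monosome footprints, each protected by 1 ribosome, gave 8 libraries with 4 per genotype. Disome footprints, protected by a ribosome and the one stacked behind it, gave 4 libraries with 2 per genotype. The measurement was the relative occupancy of a codon, a linear ratio in which 1 is close to the mean codon of the library and a higher value marks a codon on which more footprints sit. The study places this value at the ribosomal A site, where the next aminoacyl-tRNA enters.

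Cysteine carries a thiol that forms disulfide bonds and holds metal ions, and it is among the rarer residues of human proteins. A single cytosolic tRNA type, with the anticodon GCA, reads both codons, UGC by Watson-Crick pairing of the third base and UGU by a G-U wobble pair. RefSeq (GRCh38.p14) names 29 tRNA-Cys genes with the anticodon GCA, and its only entry with the anticodon ACA is a pseudogene. The same box of the genetic code holds UGG for tryptophan and the stop codon UGA, which is not in the tables. In 19510 canonical human coding sequences of GENCODE version 44, UGC made up 1.22% and UGU 1.06% of codons, so UGC was 53.4% of Cys codons. Cys was the third rarest of 20 amino acids there. These shares are not weighted by expression in the cells profiled.

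In monosome footprints the occupancy of both Cys codons was lower in the KO libraries. UGC had an occupancy of 0.839, 0.832, 0.854 and 0.846 in WT replicates 1 to 4, and of 0.726, 0.732, 0.798 and 0.774 in KO replicates 1 to 4. All 4 KO libraries were below the lowest WT library, with a gap of 0.0339 between the groups. The WT libraries lay within a narrow range and the KO libraries were more spread out. WT averaged 0.843 ± 0.00930 (SD, n = 4) and KO 0.757 ± 0.0347, a log2 difference of -0.16. This codon was 1 of 2 among the 61 whose KO libraries were all below the WT libraries, a share of 3.28%, and since this contrast was used to pick it the share carries no weight.

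For UGU, the codon read by wobble, the occupancy was 0.893, 0.956, 1.03 and 0.936 in WT replicates 1 to 4 and 0.826, 0.811, 0.904 and 0.875 in KO replicates 1 to 4. The groups overlapped, because KO replicate 3 was above WT replicate 1, and 3 of 4 KO libraries were below every WT library. The highest value of each genotype was in replicate 3. WT averaged 0.955 ± 0.0586 (SD, n = 4) and KO 0.854 ± 0.0432, again a log2 difference of -0.16.

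**Figure D1:**
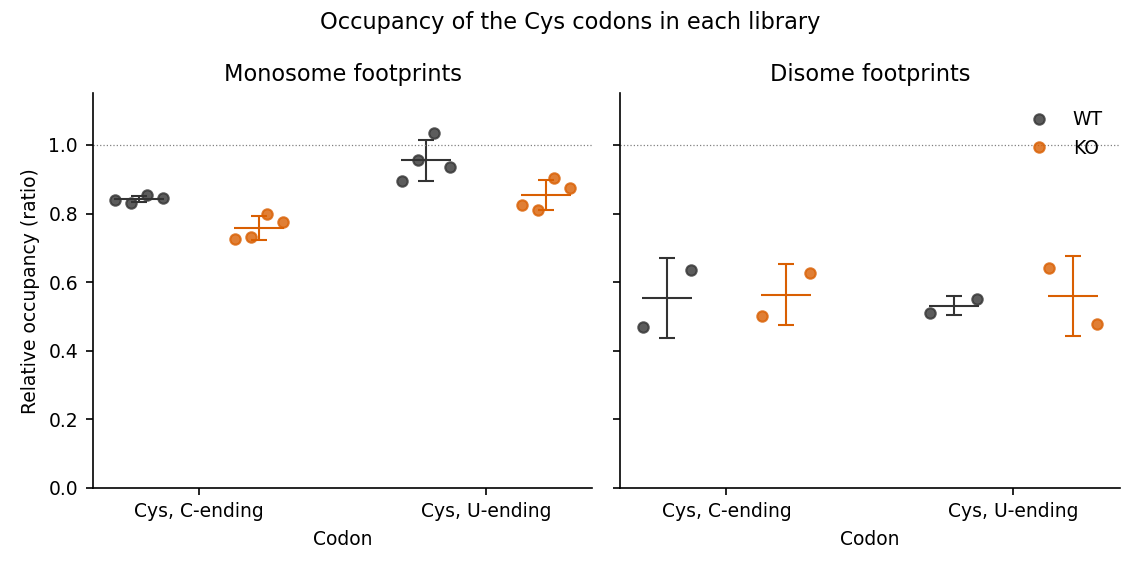
Relative occupancy (linear ratio) of the C-ending Cys codon UGC and the U-ending Cys codon UGU, with 1 point per library in replicate order, horizontal bars for group means and error bars for SD (monosome n = 4 and disome n = 2 per genotype). All 4 KO monosome libraries lie below the WT libraries for UGC, whereas the disome genotypes overlap for both codons, between 0.470 and 0.641.

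Libraries with the same replicate number deviated together in monosomes, and within every such pair both codons were lower in KO. For UGC the log2 difference between KO and WT was -0.21, -0.19, -0.10 and -0.13 in pairs 1 to 4. For UGU it was -0.11, -0.24, -0.19 and -0.10. The pair with the largest difference was therefore not the same for the 2 codons. Their mean was lower by 0.16 on the log2 scale with a pooled replicate SD of 0.06, in 4 of 4 pairs, which is 10.3% lower on the linear scale. Among the 61 codons UGU ranked first and UGC second by size of the decrease, and Cys ranked first of 20 amino acids, at -0.16, followed by Asp at -0.09. Since each codon is expressed relative to its own library, a rise elsewhere can lower the others. With the Leu and Ser codons left out of the baseline, so that each library was centred on the remaining 49 codons, the Cys difference was -0.13. Those 49 codons include the Cys codons. Whether a rise elsewhere lowered the Cys codons was not tested.

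In disome footprints the genotypes could not be separated at these codons. UGC had an occupancy of 0.470 and 0.636 in WT replicates 1 and 2, and of 0.501 and 0.626 in KO replicates 1 and 2. For UGU the values were 0.511 and 0.552 in WT, and 0.641 and 0.478 in KO. Both KO values of UGC lay between the WT values, and for UGU the KO values lay on either side of them. The log2 difference was 0.03 for UGC and 0.06 for UGU, with pooled replicate SDs of 0.27 and 0.22. The 2 codons together differed by 0.05 with a pooled SD of 0.14, by 0.21 in pair 1 and by -0.12 in pair 2. Of the 61 codons in disomes 14, or 23.0%, had both KO libraries below both WT libraries, and neither Cys codon was among them. With 2 libraries per genotype the replicate spread was close in size to the decrease seen in monosomes, so a decrease of that size was not detectable in disomes. Whether the monosome and disome differences were unequal was not tested.

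**Figure D2:**
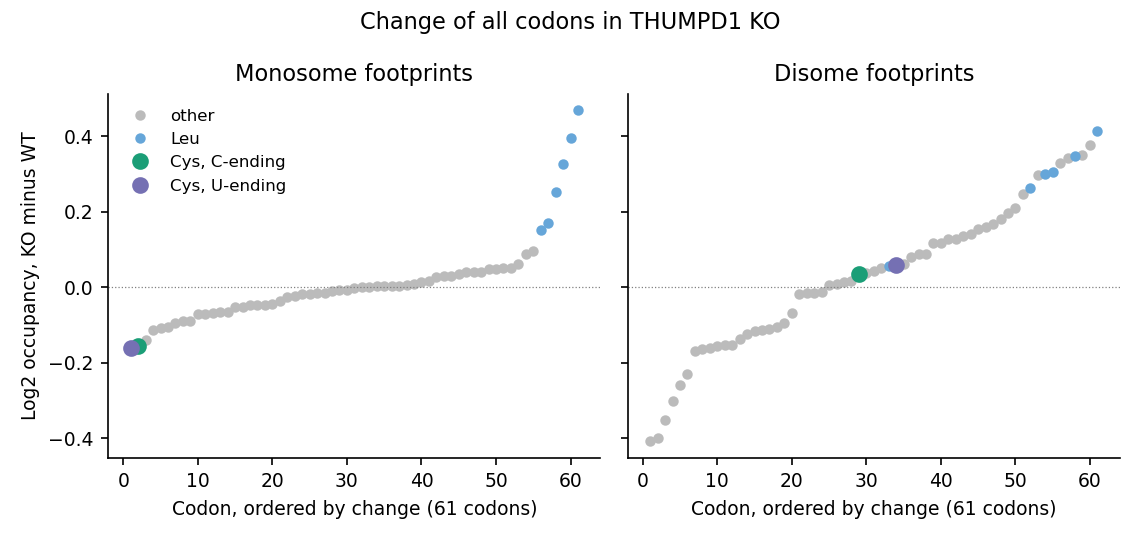
Log2 occupancy in KO minus WT for each of 61 codons, ordered from the most lowered on the left (horizontal axis, rank) in monosome and disome footprints, with the Cys codons and the 6 Leu codons coloured. The Cys codons hold the first and second rank in monosomes, at -0.16 each, and ranks 29 and 34 in disomes, at 0.03 and 0.06.

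The spread between replicates at the Cys codons was small in monosomes and large in disomes. The pooled log2 SD was 0.05 for UGC and 0.08 for UGU in monosomes, where the median over 61 codons was 0.10. In disomes it was 0.27 and 0.22, against a median of 0.13. Ordered from the least variable codon, UGC ranked 7 and UGU 20 in monosomes, and 58 and 53 in disomes. Across the 8 monosome libraries, after centring each genotype on its own mean, log2 occupancy of UGC followed that of UGU with a Pearson's r of 0.717. The codons most like the Cys mean in this respect were AAU for Asn, AGG for Arg and AUU for Ile, with r of 0.817, 0.810 and 0.786, where the median codon had 0.250. These are descriptions over libraries that share replicate numbers, and no p-value was computed. The 4 disome libraries are too few for such a comparison.

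The contrast that picked the Cys codons used the WT and KO values of both footprint kinds, so their levels are given as a description. In WT monosomes UGC was below and UGU slightly above the median codon, and in disomes both were among the lowest. UGC was at 0.928 of the median codon in WT monosomes and UGU at 1.05, and they ranked 13 and 39 from the lowest of 61. The neighbours of UGC in that order, GUC with 0.842 ± 0.0412 (SD, n = 4) and GGU with 0.849 ± 0.0690, did not differ from it beyond their spread. The same held for UGU and its neighbours, CCU with 0.945 ± 0.0417 and UCC with 0.956 ± 0.0568. In single libraries the rank of UGC was 11 to 20 in WT and 5 to 9 in KO. UGU ranked between 29 and 48 in WT and between 15 and 25 in KO. As an amino acid Cys ranked 8 of 20 from the lowest in WT and 4 in KO.

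In WT disomes UGC was at 0.671 and UGU at 0.644 of the median codon. UGU had the lowest mean of all 61 codons and UGC the third lowest, with ACC for Thr between them at 0.544 ± 0.126 (SD, n = 2), and these codons did not differ beyond their spread. UGU and UGC were the lowest and second lowest in KO disomes. In each of the 4 disome libraries both codons were among the 6 lowest, and the lowest codon of the library was UGU in WT replicate 2 and KO replicate 2 and UGC in KO replicate 1. Cys had the lowest mean of 20 amino acids in disomes of both genotypes. UGG, the tryptophan codon of the same box, stood at the other end, with 1.35 ± 0.193 in WT disomes and 1.24 ± 0.105 in KO disomes. In monosomes it averaged 1.43 ± 0.102 (SD, n = 4) for WT and 1.40 ± 0.0980 for KO.

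The mean log2 occupancy of the 2 Cys codons was then set against that of the other 59 codons within each library. In the 4 WT monosome libraries it was lower by 0.10 with an SD of 0.05, in the same direction in each. Over all 8 monosome libraries the difference was -0.19 with an SD of 0.10. In disomes it was -0.75 with an SD of 0.09, in 4 of 4 libraries and from -0.86 to -0.64. Since values of both genotypes and both footprint kinds entered the choice of the codons, no p is given for these levels. They still count among the 3 sign-flip permutation tests adjusted together for each footprint kind.

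The tables were normalized separately, so levels are set beside each other only as a description. From WT monosomes to WT disomes the mean log2 occupancy went from -0.07 to -0.91 for UGU and from -0.25 to -0.87 for UGC. The difference between the tables was -0.84 for UGU and -0.62 for UGC, the lowest and second lowest of 61 codons, where the median codon had -0.13. The next lowest was the Ser codon UCU with -0.60, which was chosen after its value was seen, so UGC was hardly apart from it.

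**Figure D3:**
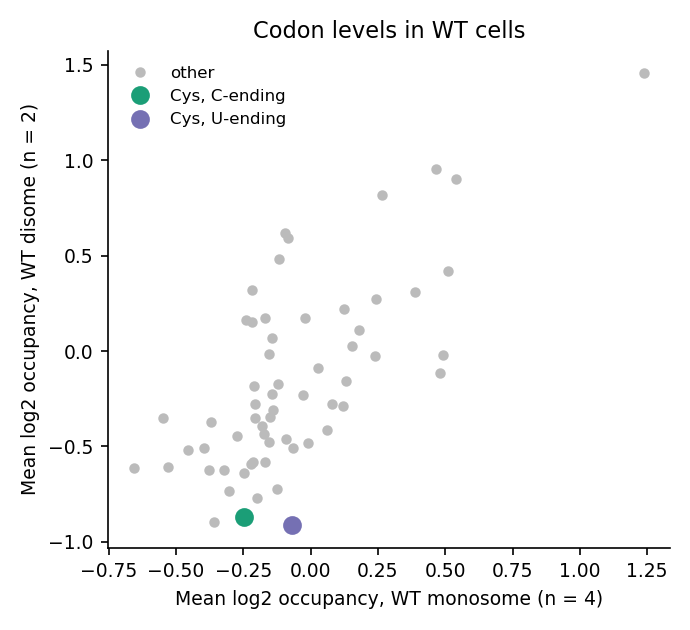
Mean log2 occupancy of 61 codons in WT monosome libraries (horizontal axis, n = 4) and WT disome libraries (vertical axis, n = 2), with 1 point per codon and both Cys codons coloured. The Cys codons lie at -0.25 and -0.07 in monosomes, close to most codons, and at -0.87 and -0.91 at the lower end in disomes.

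Whether the wobble-read codon differed from the Watson-Crick codon was compared within libraries, which cancels the baseline of each library. In monosomes UGC was less occupied than UGU. Log2 occupancy of UGC minus UGU was -0.18 with an SD of 0.05, was below 0 in 8 of 8 libraries and ranged from -0.28 to -0.09 (exact two-sided sign-flip permutation test, p = 0.00781, the smallest possible, and 0.00781 adjusted over 3 tests). It was -0.18 in WT, with an SD of 0.08, and -0.17 in KO, with an SD of 0.02. With WT and KO of a replicate number averaged into 1 value, the difference was unchanged with an exact p of 0.125, which is as low as 4 values allow. In disomes the difference was 0.03 with an SD of 0.33, was below 0 in 2 of 4 libraries and ranged from -0.36 to 0.39 (exact two-sided p = 0.875).

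This difference was next compared with that of the other codon pairs that end in C or U and share an anticodon encoded with G at the wobble position. Modification of that base in the mature tRNAs was not considered, so the pairs need not be read alike. There are 6 of them, for Phe, Tyr, His, Asn and Asp and for the AGC and AGU codons of Ser. Of these only the Ser codons are read by tRNAs that are modified through THUMPD1. In monosomes the mean log2 difference of the C-ending and the U-ending codon was between -0.02 and 0.04 for Phe, Tyr, His and Asn. Asp went the other way from Cys, at 0.29 with an SD of 0.11, in 8 of 8 libraries (exact two-sided permutation p = 0.00781, adjusted over 7 pairs 0.0273). The Ser pair was closest to Cys at -0.12 with an SD of 0.09, in 7 of 8 libraries (exact p = 0.0156, adjusted 0.0365). Cys, with an adjusted exact p of 0.0273 over the same 7 pairs, had the lowest mean difference. With replicate numbers averaged the exact p was 0.125 for each of the Asp, Ser and Cys pairs, the smallest that 4 values allow.

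**Figure D4:**
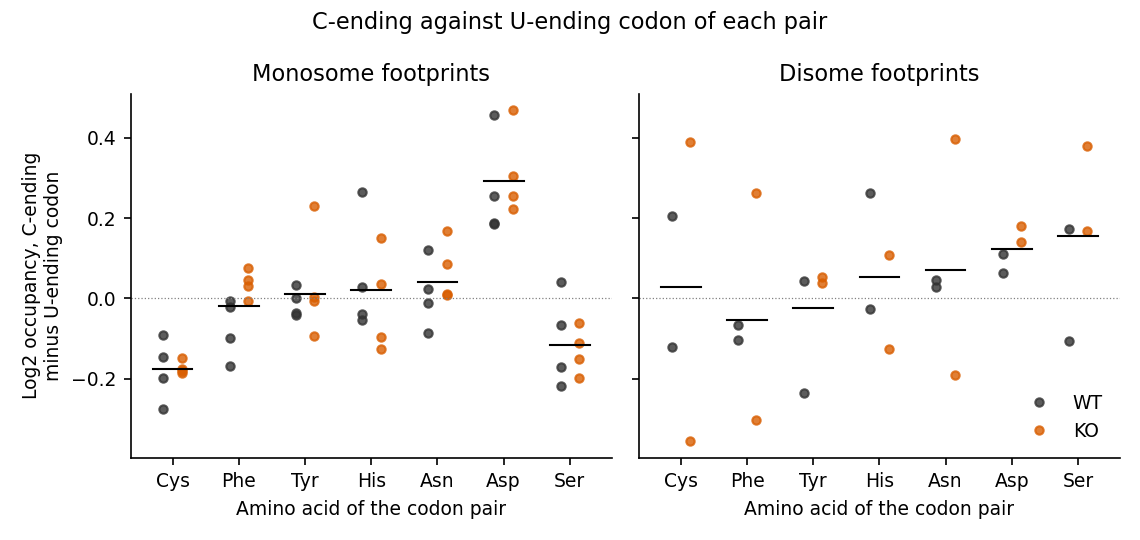
Log2 occupancy of the C-ending minus the U-ending codon (vertical axis) for 7 pairs of codons, with 1 point per library and a horizontal bar at the mean over libraries. In monosomes all 8 libraries of the Cys pair lie below 0, with a mean of -0.18, and all 8 of the Asp pair lie above 0, with a mean of 0.29, whereas in disomes the Cys libraries lie on both sides of 0.

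Against the mean of the other 6 pairs in the same library the Cys difference was lower by 0.21 with an SD of 0.06, in 8 of 8 monosome libraries (exact two-sided sign-flip permutation test, p = 0.00781, adjusted over 3 tests 0.00781). Taken singly, the Cys pair was lower than the Asp pair by 0.47, the Asn pair by 0.22, the His pair by 0.20, the Tyr pair by 0.19 and the Phe pair by 0.16, in 8 of 8 libraries except for Phe with 7 (exact p adjusted over the 6 pairs 0.0188 for Phe and 0.0117 for the other 4). These single comparisons were chosen after the values were seen. It was not separated from the Ser pair, with a difference of -0.06, an SD of 0.12 and 4 of 8 libraries in that direction (adjusted exact p = 0.25). With replicate numbers averaged each of these comparisons except that with Ser had the smallest exact p possible, 0.125. In disomes the Cys difference was -0.02 against the mean of the other pairs, with an SD of 0.28 (exact p = 1).

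Finally, codons that resemble the Cys codons were examined for a change between genotypes by limma, fitted on the whole table. In monosomes 6.56% of the 61 codons passed an adjusted p of 0.05, and these 4 were Leu codons. The count was 8 with the replicate number as a block, which added none of the codons that resemble the Cys codons. It was 10 when a correction for base composition was added to the block, and 3 of these were such codons, GAU, UAU and UUU, all lower. Without these corrections none of the 12 codons of the other pyrimidine-ending pairs passed (0 of 12, and 1 at an unadjusted p under 0.05, which was GAU), and their median log2 change was -0.004. None of the 13 codons that differ from UGC or UGU by 1 base passed either (0 of 13, and 0 unadjusted), with a median of -0.002 that equalled the median over all 61 codons. Both lists hold the Ser codons AGC and AGU, whose tRNAs are modified through THUMPD1, so not every member is unrelated to the deletion. The most lowered member of the first list was the Asp codon GAU at -0.11 (limma adjusted p = 0.305), and of the second the Phe codon UUU at -0.11 (adjusted p = 0.368). The third-base neighbour UGG differed by -0.03 with a replicate SD of 0.10. In disomes 0.0% of codons passed, so 0 of 12 and 0 of 13 did (limma, 0 and 1 unadjusted), with median log2 changes of 0.03 and 0.08 against 0.04 over all codons.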

How the data were processed

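Ribosome and disome profiling sequence the mRNA fragments that 1 ribosome or a stacked pair protects from RNase I. The authors trimmed the reads, removed those on noncoding RNA and mapped the rest uniquely with STAR to canonical UCSC transcripts (hg19). They deposited a relative occupancy per codon and library, a linear ratio, in 1 table per footprint kind. Its baseline and any coverage minimum are not given in the sources used here. Read counts were not used here, so depth is unknown and errors are the spread among libraries. Nothing in the labels says that replicates came from separate cultures, so p-values measure the spread between these libraries. Values per gene were not analysed here, so the loss of THUMPD1 was not checked.

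Sample titles gave the groups and replicate numbers. The deposited ratio was transformed to log2 without a pseudocount, and each table was analysed alone. For each codon KO was compared with WT by lmFit and eBayes of limma (version 3.58.1, under R version 4.3.3) with no block, Benjamini-Hochberg adjustment over 61 codons and a threshold of 0.05. The fit was tried on simulated data with independent noise and changes larger than the Cys difference. That trial does not cover libraries that deviate together or changes as small as those of Cys. Levels within libraries were compared by exact sign-flip permutation tests in Python version 3.11.15, over the libraries of both genotypes. In monosomes the replicate numbers were taken to pair the libraries, since the deviations from the group means of same-numbered libraries correlated with r from 0.534 to 0.872. WT and KO libraries of different numbers were not correlated, so whether the numbers pair better than other combinations was not tested. In disomes same-numbered libraries did not deviate together (r = 0.0212). Codons named were the Cys codons, UGG, the pairs compared, list members past the threshold, and the 3 codons most like the Cys mean. GAU, UUU and codons next to Cys in an order were named after their values were seen. The members, lists and tests were chosen with earlier results of these data known. Alternatives were 2 baselines, equal spread, quantile normalization, a base composition correction, a pseudocount of 0.1, the linear scale, other tests, the 46 most occupied codons, the WT libraries alone, the replicate block, and leaving out each library.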

Additional observations from a re-analysis of the deposited data

How the results depend on the processing

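In monosomes the Cys difference between genotypes was below 0 under all 17 alternatives, from -0.184 to -0.130 on the log2 scale, and -0.135 to -0.184 when 1 library was left out. The replicate block cannot change this mean in balanced pairs, and it stayed at -0.158 (-0.159 with the base composition correction). The level of Cys against the other codons, the UGC minus UGU difference and the difference from the other 6 pairs kept their direction under all 18 alternatives each. Several of these alternatives could not change the values. Centring and the replicate block leave these means as they are. The base composition correction does so for the difference from the other 6 pairs. The level of Cys draws on values that entered the choice of the codons, in WT alone as well, so no p is given for it. For UGC minus UGU and the difference from the other 6 pairs, the replicate block gave an exact p of 0.125, as low as 4 values allow (-0.176 and -0.214). The same p was found when the base correction was added to it (-0.177 and -0.214), and in the WT libraries alone (-0.178 and -0.202). The level of Cys was -0.188 with the block, with or without the base correction, and -0.101 in WT alone.

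In disomes the direction was not stable. The Cys difference between genotypes was 0.0468 as deposited, -0.0479 with median centring, -0.0709 with equal spread and -0.0444 with quantile normalization. Without 1 library it was -0.0898 to 0.183, below 0 without WT replicate 1. For UGC alone it was -0.0606, -0.0921 and -0.110 under these 3 settings and -0.184 to 0.252 without 1 library, below 0 without WT replicate 1 or KO replicate 2. For UGU alone it was -0.0353 with median centring, -0.0497 with equal spread and -0.153 to 0.272 without 1 library, below 0 without KO replicate 1. UGC minus UGU was -0.00156 after the base correction, whether blocked or not, and -0.0907 to 0.158 without 1 library, below 0 without KO replicate 2 or WT replicate 2. Its difference from the other pairs was 0.0267 in WT alone and -0.102 to 0.0870 without 1 library, above 0 without KO replicate 1 or WT replicate 1. Of these disome values the level of Cys against the other codons alone kept its sign under every alternative run, from -0.783 to -0.659. The cause was not tested.

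Blocking on the replicate number raised the monosome codons past the limma threshold from 4 to 8, and adding the base correction to the replicate block gave 10. UGC and UGU, picked on this contrast, are in the 8 and 10 but not the 4, which is no test. Of the comparator codons 3 passed with both corrections (GAU, UAU and UUU, all lower) and 0 under the other settings run for them. The exact permutation test per codon left 0 monosome codons (6 unadjusted), and leaving out 1 library left 3 to 4. In disomes the count was 4 with the trend and robust prior (GAU among them), 1 on the linear scale and 0 to 3 without 1 library, when the lone library of a genotype is assumed to vary like the others. It was 1 without KO replicate 2 and 3 without WT replicate 2, and the latter held 2 comparators, AGC and CGU. Read depth is unknown, so counting error could not be separated from the spread.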
